A study of Mus musculus with 56 samples.

Results

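The RNA levels of 10 genes of fast skeletal muscle fibres were followed in 55 mice: the myosin heavy chains Myh1, Myh2 and Myh4, the troponins Tnnt3 and Tnni2, the light chain Mylpf, the actinin Actn3, and the calcium handling genes Pvalb, Casq1 and Atp2a1. They were chosen by name and are 10 of the 18193 genes that the array annotation lists with a probe set of their own. They are read by 15 of 45037 probe sets, 3 each for Myh1 and Tnni2, 2 for Myh4 and 1 for each of the other genes. RNA came from a calf muscle, the gastrocnemius. The animals were female C57BL/6 mice without a transgene or deletion in the labels. Each mouse gave its own muscle RNA and the labels name no pooling. Mice inhaled mainstream cigarette smoke through the nose for 2, 12 or 24 weeks or were sham exposed to air for the same time, and a further group was sampled untreated at week 0. Stopping was studied in 2 arms, labelled FA and RA, in which 12 weeks of smoke were followed by 12 weeks without smoke. FA also stands in the labels of the sham air groups, RA does not, and neither abbreviation is spelled out in the sources used here. The groups held 6 mice each, except smoke for 12 weeks with 7, of which the mouse numbered G8 had 2 arrays that were averaged. Mice at week 0, at 2, at 12 and at 24 weeks also differ in age, so that time under exposure and age cannot be told apart.

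A fast fibre shortens quickly because its sarcomeres hold fast isoforms of myosin and of the thin filament regulators, and because calcium is released into and cleared from its cytoplasm quickly. Rodent muscle has fast fibre types named 2A, 2X and 2B after the heavy chain they carry, which the genes Myh2, Myh1 and Myh4 encode in this order. Type 2A fibres are the most oxidative of these and 2B fibres the most glycolytic, and the mouse gastrocnemius is mostly fast with a small slow part. In whole muscle RNA, fewer fibres of a type and less RNA in each fibre cannot be told apart.

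A level is log2 of the deposited intensity plus 16. The ± after a level is the SD over mice and the ± after a difference its SE, and precision is limited by how many arrays there were. Where a gene had several probe sets the brightest was used, and 12351 genes above a fixed level, all 10 members among them, were tested together with limma at a Benjamini-Hochberg adjusted p under 0.05. On 12 arrays the mean of 11 measured lymphocyte genes lay between 8.67 and 11.66, and on the other 44 between 4.96 and 6.73. These 12, called lymph node arrays here, came from 3 mice after 24 weeks of smoke (replicates 1, 2 and 6), 3 of cessation RA, 2 after 12 weeks of smoke, and 1 each of cessation FA, sham air for 2 weeks, sham air for 24 weeks and untreated mice. The name is only a handle, and where the lymphocyte signal came from was not tested. Results that rest on them are given with and without them. The pieces held muscle throughout: the mean of 6 muscle fibre genes ran from 12.70 to 13.07 over the mice, with the lowest value in the group of 24 weeks of smoke.

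Nearly all members lay at the top of the intensity scale. Mylpf was the brightest of all 45037 probe sets on 34 of 56 arrays and Tnni2 on 9, while array maxima ran from 13671 to 15890. On every array 8 of the 10 genes exceeded 50% of that array's maximum and 5 exceeded 80%, where only 20 to 55 probe sets of any kind lay. Casq1 and Myh2 were the members furthest from the ceiling, at a median of 56.9% and 64.6% of the maximum. The maxima differed between arrays, so that no single upper limit was shared by all, but the spread between mice narrowed with brightness. Its median SD within groups was 0.26 among probe sets with a mean of 5 to 6, 0.18 at 10 to 11, 0.07 at 13 to 13.5 and 0.05 at 13.5 to 14, a bin of only 28 probe sets that holds 7 of the members. Between the lowest and the highest mouse Mylpf spanned 1.09-fold, Actn3 1.12-fold, Atp2a1 1.16-fold and Myh2 2.01-fold. The dimmest probe sets of Myh1 and Tnni2 spanned 3.37-fold and 3.82-fold over the same RNA. The low end of these spans and of the Myh2 span was a single lymph node array, replicate 6 after 24 weeks of smoke. It read 8.35, 6.26 and 12.43. The other arrays ran from 9.07 to 10.10, from 6.57 to 8.20 and from 12.68 to 13.43. The same array was also lowest for Actn3 and highest for Mylpf. The middle ones spanned less, 1.54-fold for Myh1 and 1.21-fold for Tnni2, beside 1.30-fold and 1.22-fold for the brightest. Whether the brightest probe sets follow the amount of RNA in proportion was not tested.

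**Figure D1:**
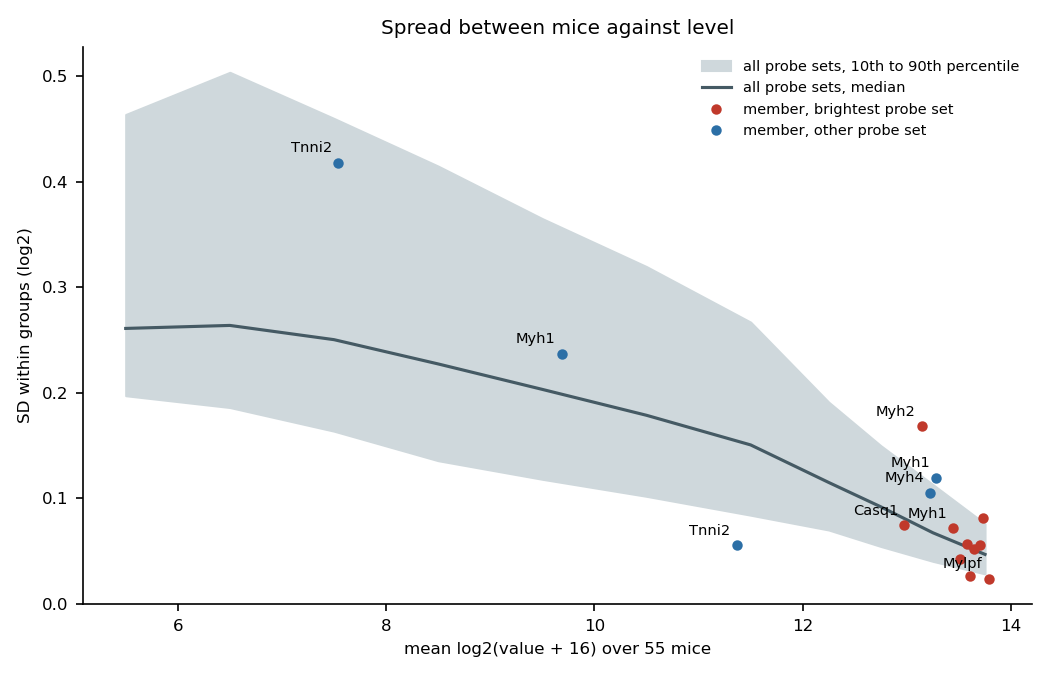
Spread between mice against level. The x axis is the mean log2(value + 16) over 55 mice and the y axis the SD within groups on the log2 scale; the line and band give the median and the 10th to 90th percentile of all probe sets, red points the brightest probe set of each of the 10 genes and blue points their other probe sets. The band narrows to the right, and 7 member probe sets lie in the brightest bin, where the median SD is 0.05. Myh2 stands furthest above the band, and the brightest Tnni2 and the middle Myh1 probe set lie slightly above it.

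Over all 9 groups no member varied past the threshold. The limma F test called 0 of 10 members, against 11.1% of all genes tested. At an unadjusted p under 0.05 it named 2 of 10, Myh2 and Casq1, against 28.4% of all genes. Casq1 had the lowest adjusted p of the limma F test, 0.066, and Myh2 followed at 0.137. Without the lymph node arrays, which leaves 44 mice, both passed: 2 of 10 members against 21.9% of all genes, with an adjusted p in limma of 0.0065 for Casq1 and 0.034 for Myh2. Leaving out each of the 44 mice as well kept the Casq1 call in 44 of 44 fits and the Myh2 call in 39, the highest adjusted p of Myh2 being 0.070. The next paragraphs give the levels behind these tests, by the role of each gene.

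**Figure D2:**
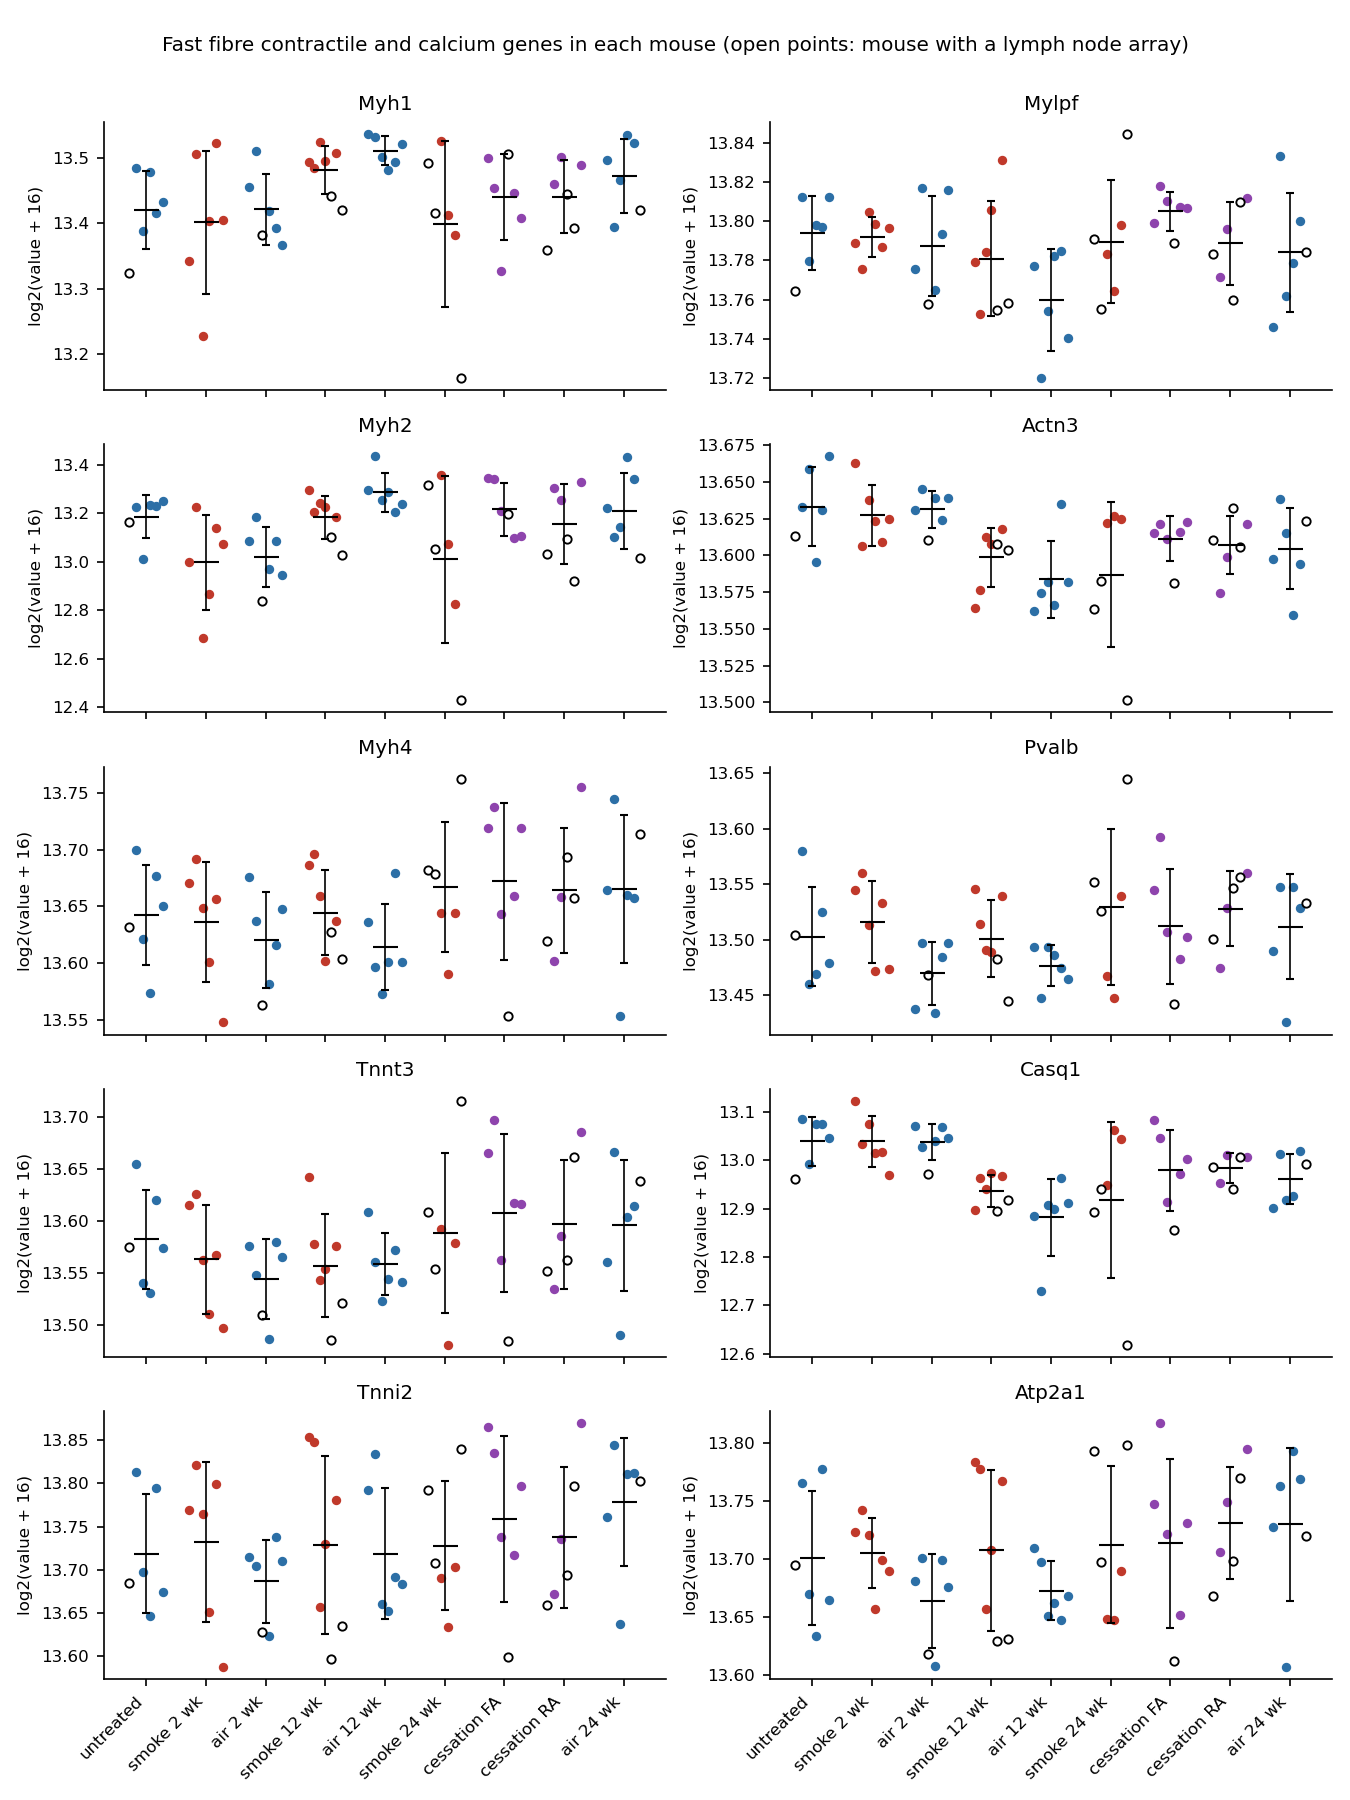
Level of each of the 10 genes in each mouse. The y axes are log2(value + 16) of the brightest probe set, each panel with its own range; the x axis gives the 9 groups in order of time, points are mice (red smoke, purple cessation, blue air or untreated, open for a mouse with a lymph node array), and bars are the mean and SD. Groups overlap in nearly every panel; in the Casq1 panel the mice of 12 weeks of air lie below those of 2 weeks of air, while for Myh2 they lie higher than those.

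Myh2, the heavy chain of 2A fibres, varied most between mice. With smoke its lowest, median and highest levels were 12.68, 13.04 and 13.23 at 2 weeks, against 12.84, 13.03 and 13.18 with sham air for 2 weeks. At 12 weeks they were 13.03, 13.21 and 13.30 with smoke, against 13.21, 13.27 and 13.43 with air. At 24 weeks they were 12.43, 13.06 and 13.36 with smoke, 13.10, 13.20 and 13.35 in cessation FA, 12.92, 13.17 and 13.33 in cessation RA, and 13.01, 13.18 and 13.43 with air. Every smoke group overlapped its air group, and the mice after 24 weeks of smoke spread widest, with an SD of 0.35, against 0.16 with air. Untreated mice ran from 13.01 to 13.25. By group mean the order was sham air for 12 weeks at 13.29, cessation FA, sham air for 24 weeks, untreated, smoke for 12 weeks, cessation RA at 13.16, sham air for 2 weeks at 13.02, smoke for 24 weeks at 13.01 and smoke for 2 weeks at 12.998. Only the step between cessation RA and sham air for 2 weeks, 0.14, exceeded the median SD within groups, 0.12, and all other neighbours in this order lay within that spread. Without the lymph node arrays the order changed. Cessation RA (n = 3) then had the highest mean, 13.29, just above sham air for 12 weeks, also 13.29. Untreated mice at 13.19 were followed by smoke for 24 weeks at 13.09 (n = 3) and sham air for 2 weeks at 13.05.

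Myh1, the heavy chain of 2X fibres, was read best by a probe set whose suffix marks sequence shared with other transcripts, so that its values may hold signal of neighbouring myosins. Its group means ran from 13.40 after 24 weeks of smoke to 13.51 after 12 weeks of air, a span of 0.11 against a median SD of 0.06 within groups. With smoke for 24 weeks its lowest, median and highest levels were 13.16, 13.41 and 13.53, against 13.39, 13.48 and 13.54 with air for 24 weeks. The groups overlapped, and the lowest of all 56 arrays was replicate 6 of smoke for 24 weeks, a lymph node array.

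Myh4, the heavy chain of 2B fibres, had levels between 13.55 and 13.76 in all mice. Its lowest, median and highest levels were 13.59, 13.66 and 13.76 after 24 weeks of smoke, against 13.55, 13.66 and 13.74 after 24 weeks of air. The group means spanned 0.06, close to the median SD of 0.05 within groups, and every group overlapped every other.

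These heavy chain genes lie next to each other on chromosome 11 in the order Myh2, Myh1 and Myh4. They are shown here because Myh2 and the brightest Myh1 probe set went together between mice while Myh4 did not follow them. That Myh1 probe set is the one with shared sequence, and the part of shared signal was not tested. The lines below give 120 bases before and 20 bases after the annotated start of each gene, on the plus strand of RefSeq GRCm38.p6, read 5′ to 3′. Capitals mark TATAAA, the core of a TATA box, and CANNTG, the E-box bound by MyoD family factors; both strands were searched, and no match of these motifs overlapped another.
Myh2 (chr11:67170907-67171046): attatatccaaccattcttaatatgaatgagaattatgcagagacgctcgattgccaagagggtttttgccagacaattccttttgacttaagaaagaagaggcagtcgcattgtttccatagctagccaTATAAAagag
Myh1 (chr11:67199982-67200121): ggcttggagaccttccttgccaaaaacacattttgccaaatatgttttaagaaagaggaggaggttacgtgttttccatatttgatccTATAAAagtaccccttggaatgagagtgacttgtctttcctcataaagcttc
Myh4 (chr11:67237692-67237831): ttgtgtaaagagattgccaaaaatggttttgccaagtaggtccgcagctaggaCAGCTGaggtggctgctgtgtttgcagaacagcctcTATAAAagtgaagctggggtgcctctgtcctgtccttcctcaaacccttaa
A TATAAA match began at position -32 from the annotated start of Myh1, at -31 for Myh4 and at 10 for Myh2, where position 0 is the base at the start. In the whole RefSeq promoter window, which reaches further to both sides, Myh1 held 2 TATAAA matches and Myh4 held 3. Myh4 also held 3 CANNTG matches and Myh1 and Myh2 held 0. Of 32851 RefSeq promoters of that length, 13.6% held TATAAA and 72.3% held CANNTG. A match is a run of letters and shows no binding. RefSeq promoters were at hand for 7 of the 10 genes.

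On their brightest probe sets the thin filament and structural genes barely moved. Tnnt3, the fast troponin T that ties the troponin complex to tropomyosin, had lowest, median and highest levels of 13.48, 13.59 and 13.72 after 24 weeks of smoke, against 13.49, 13.61 and 13.67 after 24 weeks of air. Tnni2, the fast troponin I that blocks contraction at low calcium, had 13.63, 13.71 and 13.84 with that smoke, against 13.64, 13.81 and 13.84 with that air. In both genes these ranges almost coincided. The middle Tnni2 probe set ran from 11.32 to 11.52 with that smoke and from 11.31 to 11.39 with that air. Without the lymph node arrays its smoke mice (n = 3) lay at 11.47 to 11.52, above the air mice (n = 5) at 11.31 to 11.39. How many of all probe sets lie apart in so few mice was not counted, so this separation is only a description. The dimmest one then averaged 8.05 and 7.35, while the brightest went the other way at 13.68 and 13.77. Over all groups without those arrays, limma's F test on every probe set called neither dimmer one (adjusted p = 0.166 and 0.349). Mylpf, the fast regulatory light chain, stayed between 13.72 and 13.84 in every mouse of every group, and Actn3, the alpha-actinin of fast Z-discs, between 13.50 and 13.67. Group means of Tnnt3, Tnni2, Mylpf and Actn3 spanned 0.06, 0.09, 0.05 and 0.05, beside median SDs within groups of 0.05, 0.08, 0.03 and 0.02. None of the 8 steps between neighbouring group means exceeded that SD in any of these 4 genes.

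Among the calcium genes, Pvalb and Atp2a1 behaved like the troponins and Casq1 did not. Pvalb encodes parvalbumin, a cytoplasmic calcium buffer that speeds relaxation, and had lowest, median and highest levels of 13.45, 13.53 and 13.65 after 24 weeks of smoke, against 13.43, 13.53 and 13.55 after 24 weeks of air. Atp2a1, the fast calcium pump SERCA1 of the sarcoplasmic reticulum, had 13.65, 13.69 and 13.80 with that smoke, against 13.61, 13.75 and 13.79 with that air. Their group means spanned 0.06 and 0.07, beside median SDs within groups of 0.04 and 0.06.

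Casq1, calsequestrin of fast fibres, which stores calcium inside the sarcoplasmic reticulum, had its highest means in the youngest groups. Its lowest, median and highest levels were 12.96, 13.06 and 13.08 in untreated mice. At 2 weeks they were 12.97, 13.03 and 13.12 with smoke, against 12.97, 13.04 and 13.07 with air. At 12 weeks they were 12.90, 12.94 and 12.97 with smoke, against 12.73, 12.90 and 12.96 with air. Smoke and air overlapped at both times, and between 12 and 2 weeks the air mice did not overlap while the smoke mice did. Without the lymph node arrays the highest Casq1 level after 12 weeks of smoke was 13.02, inside the range at 2 weeks. At 24 weeks the levels were 12.62, 12.95 and 13.06 with smoke, 12.86, 12.99 and 13.08 in cessation FA, 12.94, 12.997 and 13.01 in cessation RA, and 12.90, 12.96 and 13.02 with air. The untreated and both 2-week groups had means of 13.04, and the others followed as cessation RA and FA at 12.98, sham air for 24 weeks at 12.96, smoke for 12 weeks at 12.94, smoke for 24 weeks at 12.92 and sham air for 12 weeks at 12.88. Casq1 after 24 weeks of smoke differed from air by -0.04, and by 0.06 without the lymph node arrays, and neither passed. Over all mice, only the step after the 3 youngest groups, 0.05, exceeded the median SD within groups, also 0.05 but slightly smaller. The other neighbours did not differ beyond it. Without the lymph node arrays the 3 youngest groups still had the highest means, the lowest being 13.04 ± 0.05 (SD) with smoke for 2 weeks. Smoke for 24 weeks then came next at 13.02 (n = 3), within that spread, and sham air for 12 weeks stayed lowest at 12.88.

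Each length of smoke was set against equally long sham air to ask whether fast fibre genes respond to exposure. At 2 weeks limma called 0 of 10 members, against 0% of all genes, and 0 at an unadjusted p under 0.05, against 2.06%. At 12 weeks it called 0, against 0.0081%, and 0 unadjusted, against 1.86%. At 24 weeks it called 0, against 0.47%, and 1 unadjusted, Myh2, against 24.6%. No smoke response was detected on the brightest probe sets of these genes at any of the 3 times. For Myh2 the 95% interval of the difference ran from -0.21 to 0.18 at 2 weeks and from -0.29 to 0.09 at 12 weeks. At 24 weeks it ran from -0.39 to -0.004, short of 0 but not adjusted for the number of genes tested. Leaving aside Myh2, the 95% intervals of the differences lay between -0.11 and 0.15 at 2 weeks, between -0.12 and 0.14 at 12 weeks and between -0.17 and 0.08 at 24 weeks. Without the lymph node arrays they lay between -0.11 and 0.13, between -0.09 and 0.15 and between -0.22 and 0.15. The widest of these, at 24 weeks, rest on 3 smoke and 5 air mice. The median difference of the members was 0.01, 0.02 and -0.02 at these times, beside -0.02, -0.01 and -0.03 over all genes. Averaged over the 3 times, limma called 0 members, against 0.0324% of all genes, and 0 unadjusted, against 9.17%. Between the smoke effects at 24 and at 2 weeks it called 0, against 0.0324%, and 0 unadjusted, against 18.6%.

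Myh2 carried the widest difference. It was 13.01 ± 0.35 (SD, n = 6) after 24 weeks of smoke and 13.21 ± 0.16 (n = 6) after 24 weeks of air, a difference of -0.20 ± 0.10 (SE) that did not pass (limma, adjusted p = 0.194). Leaving out the lymph node arrays gave -0.16, and leaving out only replicate 6 of smoke for 24 weeks gave -0.08. Leaving out only replicate 3 of that group gave -0.27. The difference passed in no setting, with a lowest adjusted p in limma of 0.074. In the 6 mice with smoke for 24 weeks Myh2 was 13.32, 13.05, 13.36, 13.07, 12.83 and 12.43, and the mean of 6 slow fibre markers in the same mice was 12.86, 12.19, 12.74, 11.88, 11.05 and 11.09. The mice with the lowest slow fibre means, replicates 5 and 6, were also the lowest for Myh2. The slow counterparts of the members, 17 genes such as Myh7, Tnni1 and Atp2a2, differed by a median of -0.45 in this comparison and none passed, and the part of the slow fibre level in the Myh2 difference was not tested. Adipocyte markers were also uneven, with a median over mice of 10.10 after 24 weeks of smoke and 9.58 after air, and their part was not tested either.

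The cessation arms were set against sham air to ask whether levels after stopping match those of mice that never smoked, and against continued smoke. For cessation FA minus air limma called 0 of 10 members, against 0.081% of all genes, and 0 unadjusted, against 7%. For cessation RA minus air it called 0, against 1.76%, and 0 unadjusted, against 13.7%. For cessation RA minus FA it called 0, against 0.0243%, and 0 unadjusted, against 4.15%. Neither arm was told apart from air or from the other arm in these genes, with 95% intervals besides Myh2 between -0.12 and 0.11 for FA minus air and between -0.14 and 0.12 for RA minus air. Without the lymph node arrays these intervals lay between -0.14 and 0.13 for FA and between -0.13 and 0.12 for RA. For Myh2 over all mice the intervals were wider, from -0.19 to 0.20 for FA and from -0.25 to 0.14 for RA. For continued smoke minus cessation FA limma called 0 members, against 3.55%, and 1 unadjusted, Myh2, against 27.7%. For continued smoke minus cessation RA it called 0, against 2.34%, and 0 unadjusted, against 15.8%. Myh2 was 13.01 ± 0.35 (SD, n = 6) after continued smoke and 13.22 ± 0.11 (n = 6) in cessation FA, a difference of -0.21 ± 0.10 (SE; limma, adjusted p = 0.162) that became -0.09 without replicate 6 of smoke for 24 weeks. Without replicate 3 of that smoke group the Myh2 difference was -0.28, and it passed in no setting. All these comparisons at 24 weeks share groups, and each is given by its own values. For cessation FA minus smoke for 12 weeks limma called 0 members, against 0.34%, and 0 unadjusted, against 6.49%, and 9 of the 10 differences were above 0, the highest being 0.05 for Tnnt3.

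**Figure D3:**
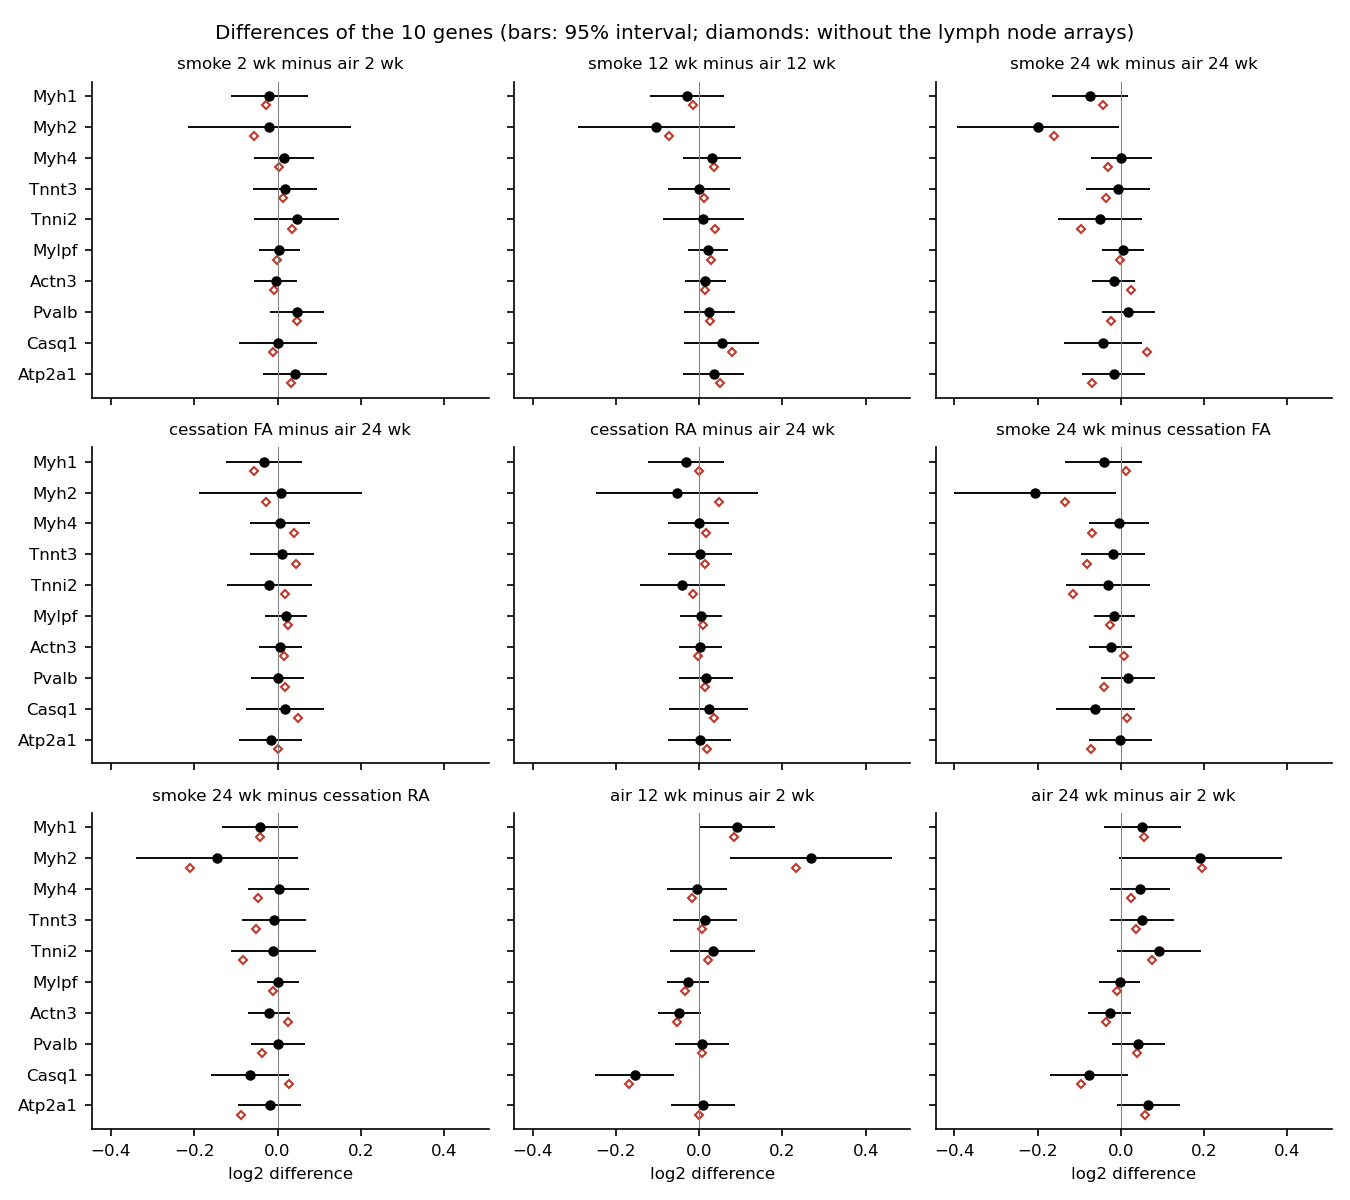
Differences of the 10 genes in 9 comparisons. The x axis is the log2 difference, the group named before "minus" less the group after it; black points and bars are the fit over all mice with its 95% interval, and open diamonds the values without the lymph node arrays. Most genes sit close to 0 in every panel, Myh2 has the widest intervals, and Casq1 and Myh2 lie on opposite sides of 0 in the panel of 12 against 2 weeks of air.

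Among mice that never smoked, the members were compared over time. For sham air at 2 weeks minus untreated limma called 0 members, against 0.518% of all genes, and 0 unadjusted, against 7.38%. For sham air at 24 minus 2 weeks it called 0, against 0.219%, and 0 unadjusted, against 11.8%. For sham air at 12 minus 2 weeks it called 0, against 0.0081%, and 2 unadjusted, Casq1 and Myh2, against 6.19%. In this last comparison the mice of both groups did not overlap for 2 of 10 members, against 1.25% of all genes. In the other 11 comparisons of 2 groups every member overlapped.

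Casq1 was 12.88 ± 0.08 (SD, n = 6) after 12 weeks of air and 13.04 ± 0.04 (n = 6) after 2 weeks, and all 6 mice at 12 weeks lay below all 6 at 2 weeks. The difference of -0.16 ± 0.05 (SE) did not pass over all mice (limma, adjusted p = 0.299). Without the lymph node arrays, of which this comparison held 1, it was -0.17 and passed (limma, adjusted p = 0.017), as the 1 member called against 0.907% of all genes. Tested over every probe set on the same arrays, it did not pass (adjusted p = 0.074). When only that mouse, replicate 3 of air for 2 weeks, was left out, the difference was also -0.17 but did not pass (adjusted p = 0.308). With all mice but replicate 6 of smoke for 24 weeks, which is outside this comparison, it was -0.16 and passed (adjusted p = 0.049). After 24 weeks of air Casq1 differed from 2 weeks by -0.08 ± 0.05 (SE; limma, adjusted p = 0.537). Myh2 went the other way, at 13.29 ± 0.08 (SD, n = 6) after 12 weeks of air and 13.02 ± 0.12 (n = 6) after 2 weeks, with all 6 mice at 12 weeks above all 6 at 2 weeks. Its difference of 0.27 ± 0.10 (SE) did not pass (limma, adjusted p = 0.494), nor did the 0.23 without the lymph node arrays (adjusted p = 0.129). Of the 17 slow counterparts 16 lay above 0 in the same comparison, with a median of 0.41 and none past the threshold, and their part in the Myh2 difference was not tested.

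The probe sets of one gene did not always tell the same story. In 43 mice without a lymph node array, after each value was centred on its group mean, both bright probe sets of Myh1 had a Pearson r of 0.65 (Spearman 0.55). The dim remaining one, at a mean of 9.69, had an r of -0.05 with the brightest. The probe sets of Myh4 had an r of 0.29. For Tnni2 the brightest probe set, at 13.73, and the dimmest, at 7.54, ran against each other with an r of -0.79 (Spearman -0.78), and an r of -0.75 without the 2 mice furthest from the median. These points share their RNA, amplification and array, and the correlations are descriptions. When every probe set was tested alone, limma's F test called none of the 15 member probe sets, against 5.3% of all probe sets. Without the lymph node arrays it called 3, of Casq1 and of the dimmer probe sets of Myh1 and Myh4 (adjusted p = 0.037, 0.032 and 0.049), against 9.77%. In that fit Myh2 did not pass (adjusted p = 0.066), and the brightest probe sets of Myh1 and Myh4 had an adjusted p of 0.419 and 0.792. On these arrays the dimmest probe set of Myh1 averaged 9.63 after 12 weeks of air and 9.87 after 2 weeks, while the brightest one ran higher at 12 weeks.

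**Figure D4:**
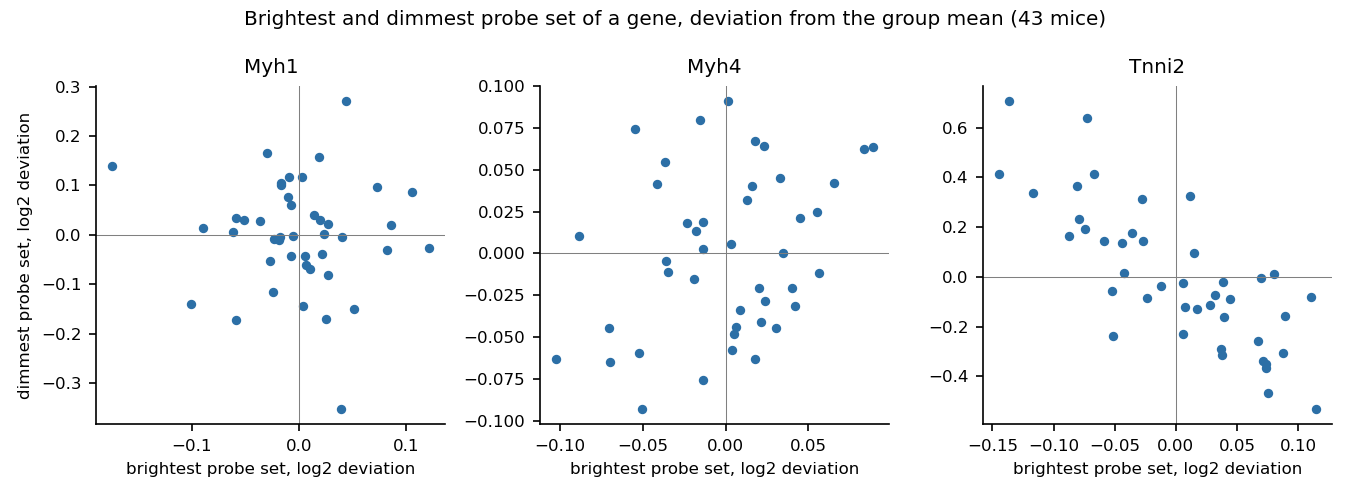
Brightest against dimmest probe set of Myh1, Myh4 and Tnni2. Both axes are deviations from the group mean in log2 units, and points are the 43 mice without a lymph node array. The Myh1 points show no direction (r = -0.05), the Myh4 points a slight rise (r = 0.29), and the Tnni2 points fall along a line (r = -0.79).

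Between mice, the members fell into blocks that did not match their gene families. Over the same 43 mice, group-centred and on brightest probe sets, Myh1 and Myh2 had an r of 0.77. Myh4 had an r of 0.09 with Myh1 and 0.13 with Myh2. The Myh1 probe set used here is the one with shared sequence, and the part of Myh2 signal in it was not tested. Myh4, Tnnt3, Tnni2, Pvalb and Atp2a1 formed the other block, with r from 0.67 for Myh4 and Atp2a1 to 0.87 for Myh4 and Tnnt3. Mylpf, Actn3 and Casq1 followed neither closely, with r of 0.32 to 0.42 among themselves and at most 0.46, for Mylpf and Pvalb, with the second block. The second block also moved with the bright end of each array: with the mean of 450 other bright probe sets its 5 genes had r from 0.70 to 0.81, and Myh1 and Myh2 had 0.03 and 0.20. After quantile normalization, which gives all arrays the same set of values, Myh4 and Tnnt3 had an r of 0.71, Myh4 and Atp2a1 of 0.24, and Myh1 and Myh2 of 0.72. Mylpf and Tnnt3 changed sign, with an r of 0.37 before and -0.64 after it.

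Myh2, and Myh1 on its brightest probe set, ran with slow fibre genes. With 7 slow genes (Myh7, Tnnt1, Tnni1, Tnnc1, Myl2, Atp2a2 and Casq2) Myh2 had r from 0.72 to 0.87 and the brightest Myh1 probe set, the one with shared sequence, from 0.45 to 0.57. The second Myh1 probe set had r from 0.09 to 0.37 with the same genes, and the dimmest was below 0 with all 7, from -0.40 to -0.19. Casq1, Actn3 and Mylpf had an r below 0 with all 7, down to -0.32, -0.40 and -0.25. The brightest Myh4 probe set was near 0 with them, from -0.18 to 0.18, and the dimmer one below 0 with all 7, from -0.47 to -0.16. Both dimmer probe sets of Tnni2 were also below 0 with all 7. The brightest Tnni2 probe set was above 0 with 5 of 7, from -0.06 to 0.35, and so was Pvalb, from -0.09 to 0.26. Tnnt3 and Atp2a1 were above 0 with all 7, from 0.01 to 0.35 and from 0.01 to 0.39. The genes most like Myh2 were Atp1b1, a sodium pump subunit, with an r of 0.91, Myoz2, a Z-disc protein of slow fibres, with 0.90, and Lmod2, an actin filament protein, with 0.90. For Myh1 they were Mybpc1, Myh2 and Lmod2 (0.79, 0.77 and 0.77), and for Myh4 Tuba4a, Tnnt3 and Mybpc2 (0.91, 0.87 and 0.87). For Tnnt3 they were Tnnc2, the fast troponin C, with 0.91, Tuba4a and the muscle enolase Eno3. Tnni2 was most like Rpl19, Rps19 and Gnas (0.93, 0.93 and 0.92), which are not muscle genes and are bright as well. Pvalb was most like Atp2a1 (0.82), and Atp2a1 most like Eno3, Aldoa and Gnas (0.87, 0.86 and 0.85). Casq1, Mylpf and Actn3 had no close companion, with highest r of 0.74 with Mlec, 0.67 with Aspa and 0.62 with Pus10. These are the highest of 12350 correlations for each gene and are descriptions.

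**Figure D5:**
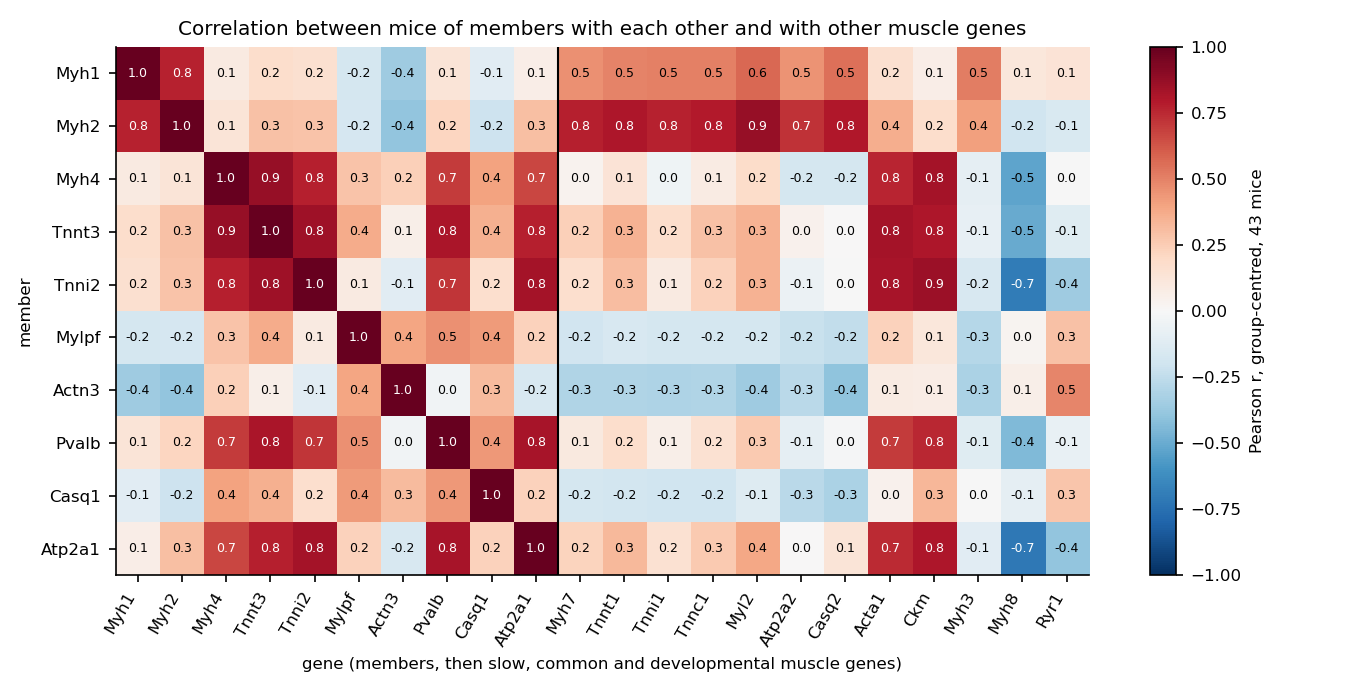
Correlation between mice of the 10 genes with each other and with 12 other muscle genes. Each cell is Pearson r over 43 mice after centring on group means, columns left of the black line are the members, and columns right of it are slow genes (Myh7 to Casq2), Acta1, Ckm, Myh3, Myh8 and Ryr1. On these brightest probe sets Myh1 and Myh2 are red with the slow genes, Myh4, Tnnt3, Tnni2, Pvalb and Atp2a1 are red with each other and with Acta1 and Ckm, and Actn3 is blue with the slow genes.

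The array of replicate 6 after 24 weeks of smoke, with the highest lymphocyte mean and the highest maximum of all arrays (15890), split the members. By brightest probe set it was the highest of all 56 arrays for Myh4, Tnnt3, Mylpf and Pvalb, and the lowest for Myh1, Myh2, Actn3 and Casq1. Casq1 was 12.62 there and 12.73 to 13.12 on the other arrays, while Myh4 was 13.76 there and 13.55 to 13.76 on the others. The dimmer Myh4 probe set went the other way, at 13.08 with 50 of 55 arrays above it. Both arrays of mouse G8, which are the same animal by its number, give a second view: the lymph node array minus the other one was -0.03 for Mylpf and -0.04 for Myh4, but -0.67 for the dimmer probe set of Myh4, -0.70 for the dimmest of Myh1, -0.21 for Casq1 and -0.19 for Myh2. For Myh4 the brightest probe set thus differed little where the dimmer one of the same gene was lower on the lymph node array. The lymph node array of G8 also carries an identifier outside the main run of identifiers. In this single pair that and the lymphocyte signal cannot be told apart.

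Other genes of fast fibres and of calcium handling gave few calls. Of 24 other fast fibre genes measured, 0 passed in any smoke minus air comparison at 2, 12 or 24 weeks, and 6 had an unadjusted p under 0.05 at 24 weeks, a share close to the 24.6% of all genes. Mylk4, a myosin light chain kinase family member, was lower in cessation RA than in air (-0.15 ± 0.04, SE; limma, adjusted p = 0.044) and higher in air for 2 weeks than in untreated mice (0.22 ± 0.04; adjusted p = 0.0043). The call against air was lost without the lymph node arrays (0.052), with no filter (0.081), over every probe set (0.067), with the dimmest probe set of a gene (0.086), with quantile normalization (0.081) and with only the compared groups (0.145), all adjusted p. After continued smoke minus cessation RA Mylk4 differed by 0.17 and Mylk2, the skeletal light chain kinase, by -0.68, and both passed; after continued smoke minus cessation FA Eya1, a cofactor of homeobox factors that drive the fast programme, differed by -0.60 and passed. The Eya1 difference was -0.16 and did not pass without the lymph node arrays, nor did Mylk2 at -0.49. The Mylk4 difference of continued smoke from cessation RA did not pass with quantile normalization (adjusted p = 0.106), and with only the compared groups in the fit neither it nor Mylk2 nor Eya1 passed (adjusted p = 0.756, 0.775 and 0.533).

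Of 22 measured genes of calcium release and uptake, only Mrln passed in any of the 14 comparisons. Over all 9 groups the F test, which called 11.1% of all genes, also called Sln. Its group means ran from 7.65 in untreated mice to 9.51 after 12 weeks of smoke. The comparisons named next are those of Mrln. Mrln passed in smoke minus air at 24 weeks, against 0.47% of all genes, and in continued smoke minus cessation FA and RA, against 3.55% and 2.34%. At an unadjusted p under 0.05, 11 of the 22 were named in smoke minus air at 24 weeks, against 24.6% of all genes, 14 in continued smoke minus cessation FA, against 27.7%, and 6 in continued smoke minus cessation RA, against 15.8%. Mrln encodes myoregulin, a small membrane protein that inhibits the SERCA pump, and was 11.45 ± 0.43 (SD, n = 6) after 24 weeks of smoke, 12.17 ± 0.19 in cessation FA, 12.38 ± 0.14 in cessation RA and 12.00 ± 0.15 with air for 24 weeks. It fell by 0.55 with smoke against air (limma, adjusted p = 0.024), a call lost without the lymph node arrays at -0.32 (adjusted p = 0.112). Continued smoke minus cessation FA was -0.72 (adjusted p = 0.00060) and minus cessation RA -0.94, and both passed also without those arrays, at -0.55 and -0.80. With only the compared groups in the fit none of these Mrln calls passed (adjusted p = 0.641 against air, 0.354 against cessation FA and 0.155 against cessation RA). Ryr1, the calcium release channel of skeletal muscle, differed by 0.00 ± 0.03 (SE) between 24 weeks of smoke and air. The list's median in smoke minus air at 24 weeks was -0.25, beside -0.03 over all genes, and -0.04 without the lymph node arrays.

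The remaining muscle lists had no calls in the 14 comparisons, although the F test called Ankrd2 of the slow counterparts and Myh3 and Myl4 of the developmental genes. Of 11 sarcomere genes common to all fibres and of 17 slow counterparts, 0 passed in any of them. At an unadjusted p under 0.05, 3 of 11 sarcomere genes and 8 of 17 slow counterparts were named in smoke minus air at 24 weeks, against 24.6% of all genes. Acta1, skeletal actin, differed by 0.01 ± 0.03 (SE) there and Ckm, muscle creatine kinase, by -0.07 ± 0.05. The slow myosin Myh7 differed by -0.47 ± 0.22 and the slow troponin I gene Tnni1 by -0.74 ± 0.38, and neither passed (limma, adjusted p = 0.175 and 0.217). Among the 3 developmental myosin genes, Myh3, the embryonic heavy chain, was 8.70 ± 0.44 (SD, n = 6) after 12 weeks of air and 7.90 ± 0.29 after 2 weeks, a difference of 0.80 ± 0.23 (SE; limma, adjusted p = 0.235) that passed without the lymph node arrays at 0.84 (adjusted p = 0.019). Myh8, the perinatal heavy chain, differed by 0.25 ± 0.28 (SE) in that comparison.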

How the data were processed

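The deposited values are intensities on a linear scale, a single value for each probe set and array. The authors' summarisation, normalization and tools: not given in the sources used here. RNA was amplified to cDNA by the same protocol for all arrays, per the labels' protocols. Values were floored at -15, 16 was added and log2 taken, with no further scaling. Probe sets were named by the platform annotation, which joins 34945 to 1 symbol; those with several (932) or none (9160) were left out. The brightest probe set stood for a gene, and genes under the 40th percentile of all probe sets (log2 5.71) were dropped. A single limma model of 9 groups (46 residual degrees of freedom, 48.2 after moderation) gave the F test and 14 comparisons. P-values measure the spread between mice.

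The members, lists, comparisons and the limit of 8.5 for lymph node arrays were chosen with earlier results of these data known. All members were named; from the other lists 12 set genes and up to 3 of lowest p past the threshold in a comparison; for likeness the 3 highest correlations. The model was tested on simulated data. Alternatives were other filters, probe set choices, pseudocounts (1 and 64), quantile normalization, robust moderation, array weights, the compared groups alone, single G8 arrays, run and title number, lymphocyte level, and left-out arrays or mice. Fits ran in R 4.3.3 with limma 3.58.1 and files were read with data.table (1.17.8); descriptions and plots used Python 3.11.15 with pandas 2.3.3, scipy 1.17.1, numpy 2.4.6 and matplotlib 3.10.9.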

Additional observations from a re-analysis of the deposited data

Results flagged for a closer look

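In 90 looks, 10 genes in 9 groups, 4 mice lay far from the rest of their group by Dixon's ratio of gap to range, and chance gives about 1 in 20. Casq1 was 12.73 in replicate 2 of sham air for 12 weeks, below the other mice of the group at 12.89 to 12.96. Actn3 was 13.63 in replicate 5 of the same group, above the others at 13.56 to 13.58. Actn3 was also 13.58 in replicate 4 of cessation FA, the lymph node array of that group, below the others at 13.61 to 13.62. Myh2 was 13.01 in replicate 3 of the untreated mice, below the others at 13.17 to 13.25. The Casq1 difference between 12 and 2 weeks of air was -0.12 without its low mouse, against -0.16 with it.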

How the results depend on the processing

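No paired analysis was possible because the groups held different mice. Of 561 counts of called members under other settings, 546 equalled those reported and 15 did not. The F test called 1 member, Casq1, with robust moderation and a trend, with lymphocyte level as covariate, and when the outlying 24-week smoke array was dropped. It called 2, Casq1 and Myh2, with array weights, without the lymph node arrays, and with quantile normalization without those arrays, a setting added after the data were seen. It called 4, Casq1, Myh2, Myh1 and Myh4, with the dimmest probe set of a gene and without those arrays, also added later. Leaving out 1 mouse at a time gave 0 to 1, the 1 being Casq1 without replicate 4, 5 or 6 of smoke for 24 weeks. For 12 minus 2 weeks of air the count was 1, Casq1, with array weights, without the lymph node arrays, with the outlying array dropped and in both added settings. That difference ran from -0.18 to -0.12 over all settings. Without the lymph node arrays, leaving out 1 more mouse lost this Casq1 call in 4 of 44 fits (air for 2 weeks replicates 1, 5 and 6, air for 12 weeks replicate 2) and the Myh2 F test call in 5. Over all pairs of a named gene's difference and a setting, 56 lost a call, 83 gained one and 0 reversed. On every array 8 of the 10 genes lay above 50% of the array's maximum, and whether this limits what could be seen was not tested.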
